A study of Caenorhabditis elegans with 6 samples.

Results

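The genes described here encode the lower part of glycolysis, from glyceraldehyde-3-phosphate to pyruvate, and the lactate dehydrogenase that uses the pyruvate. They are *gpd-1*, *gpd-2*, *gpd-3*, *gpd-4*, *pgk-1*, *ipgm-1*, *enol-1*, *pyk-1*, *pyk-2* and *ldh-1*. They were chosen by name from the pathway and not by a cut on their values, though earlier results of these data were known. All 10 are in the deposited table, which lists 12798 genes in 53267 merged exons, and 45 of those exons belong to the 10 genes. RNA with polyA tails was sequenced from whole worms of 6 conditions of *Caenorhabditis elegans*, 1 pooled library per condition, all grown on NGM plates with OP50 bacteria.

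The *sdhb-1(gk165)* larvae (L2), called *gk165* below, are homozygous for a null deletion in *sdhb-1*, the gene of the iron-sulphur subunit of succinate dehydrogenase, and arrest as L2 larvae. The deletion also removes the first exon and part of the second exon of the neighbouring gene *cup-15*. R244H larvae (L4) carry a single-copy transgene on X with the Arg244His point mutant of *sdhb-1*, and the label gives their genotype as sdhb-1(gk165)/mIn1;R244H, where *mIn1* is a balancer of chromosome II. Whether the sequenced R244H pool still held worms with the balancer is not stated. WTR larvae (L4) carry the wild-type transgene in the *gk165* background, sdhb-1(gk165);WTR, and serve with WT (L4) as the controls of R244H. Wild-type Bristol N2 larvae were sequenced as WT (L2), WT (L3) and WT (L4), and WT (L2) and WT (L3) serve as the controls of *gk165*. The transgenes also carry *unc-119*(+), a rescue marker used to make them, and the study lists *unc-119(ed3)* with a question mark in R244H and WTR. Each transgene is represented by 1 line.

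In glycolysis, glyceraldehyde-3-phosphate dehydrogenase (GAPDH) reduces NAD+ to NADH, phosphoglycerate kinase and pyruvate kinase make ATP, and phosphoglycerate mutase and enolase carry out the steps between them. Lactate dehydrogenase turns pyruvate into lactate and returns NADH to NAD+, which lets glycolysis go on when mitochondria do not take up the NADH. Worms with a defect of succinate dehydrogenase have an impaired mitochondrial respiration, and the study compared the null and the point mutant to see how their metabolism differs. In *C. elegans*, 4 genes encode GAPDH and 2 encode pyruvate kinase.

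The recovered totals ran from 188742 reads in WT (L2) to 867446 in WT (L4), with 279254 in *gk165*, and 10 reads in both libraries together was the least used for a ratio. Each ratio compares 2 libraries, has no replicate check and carries no p-value, and its 95% interval covers counting error only. A ratio is given as the log2 of the CPM (reads scaled to the size of the library) of one library over the other, and levels are given as RPKM, which is CPM per kilobase of listed exon. Over all genes compared, the median log2 ratio was 0.16 for *gk165* over WT (L2), -0.42 for *gk165* over WT (L3), -0.38 for R244H over WT (L4) and -0.35 for R244H over WTR, so a gene at 0 in the last 3 comparisons lies above the middle of the table. As a check of the labels, *sdhb-1* had 5 reads in *gk165*, against 32 in WT (L2) and 142 in WT (L3). In the lines with a transgene it had 68 reads in R244H, against 44 in WTR and 165 in WT (L4), a log2 ratio of 1.04 (0.48 to 1.62) over WTR and of -0.25 (-0.68 to 0.17) over WT (L4), and WTR was lower than WT (L4) by -1.29 (-1.81 to -0.80).

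In R244H, most of these transcripts were more abundant than in both L4 controls. *gpd-2*, *gpd-3*, *pyk-2* and *ldh-1* were at least 2-fold higher than in WT (L4) and than in WTR, and *enol-1* was just under 2-fold higher. *gpd-1* was at least 2-fold lower than in both controls and *gpd-4* at least 2-fold lower than in WTR. Against WT (L4), 4 of the 10 genes were at least 2-fold higher and 1 lower, where over all 8727 genes compared 12.7% were higher and 32.9% lower. Against WTR, 4 of 10 were higher and 2 lower, beside 16.1% and 33% of 7975 genes. The 10 genes had a median log2 ratio of 0.82 over WT (L4) and of 0.71 over WTR. Pooled over all 10 genes, R244H had 4822 CPM, against 2381 in WTR and 2296 in WT (L4), a log2 ratio of 1.02 (95% interval 0.91 to 1.12) to WTR and of 1.07 (0.98 to 1.16) to WT (L4).

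In *gk165*, the same genes were divided. *gpd-3* and *pyk-2* exceeded WT (L2) at least 2-fold, while *pyk-1* was at least 2-fold lower. That makes 2 higher and 1 lower of the 8 genes with enough reads, where 30.2% and 24.4% of all 5714 genes compared were higher and lower. Against WT (L3), *pyk-2* was higher and *pyk-1* lower, 1 each of 8, beside 17.9% and 35.5% of 7603 genes. The 8 genes had a median log2 ratio of 0.40 over WT (L2) and -0.42 over WT (L3), and the second value is that of all genes compared. Pooled over the 10 genes, *gk165* had 3167 CPM, against 1603 in WT (L2) and 3615 in WT (L3). *gpd-1* and *gpd-4* had 3 reads each in *gk165*, too few for a ratio.

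**Figure D1:**
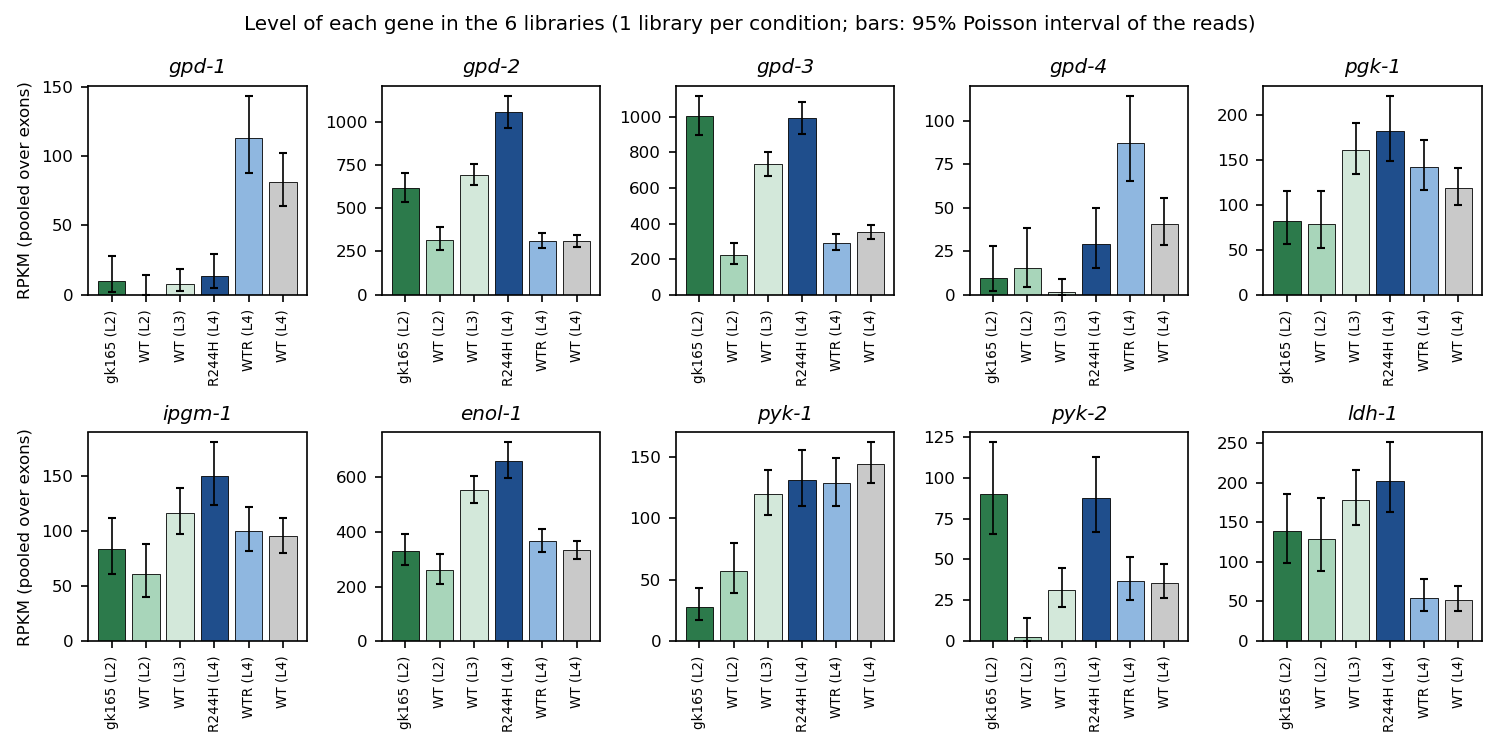
Level of each of the 10 genes in RPKM (y axis, linear from 0) in the 6 libraries (x axis), with error bars that show the 95% Poisson interval of the reads. R244H has the highest bar for *gpd-2*, *pgk-1*, *ipgm-1*, *enol-1* and *ldh-1*, while *gpd-1* and *gpd-4* are highest in WTR, and *pyk-2* is lowest in WT (L2) at 2.49 RPKM.

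**Figure D2:**
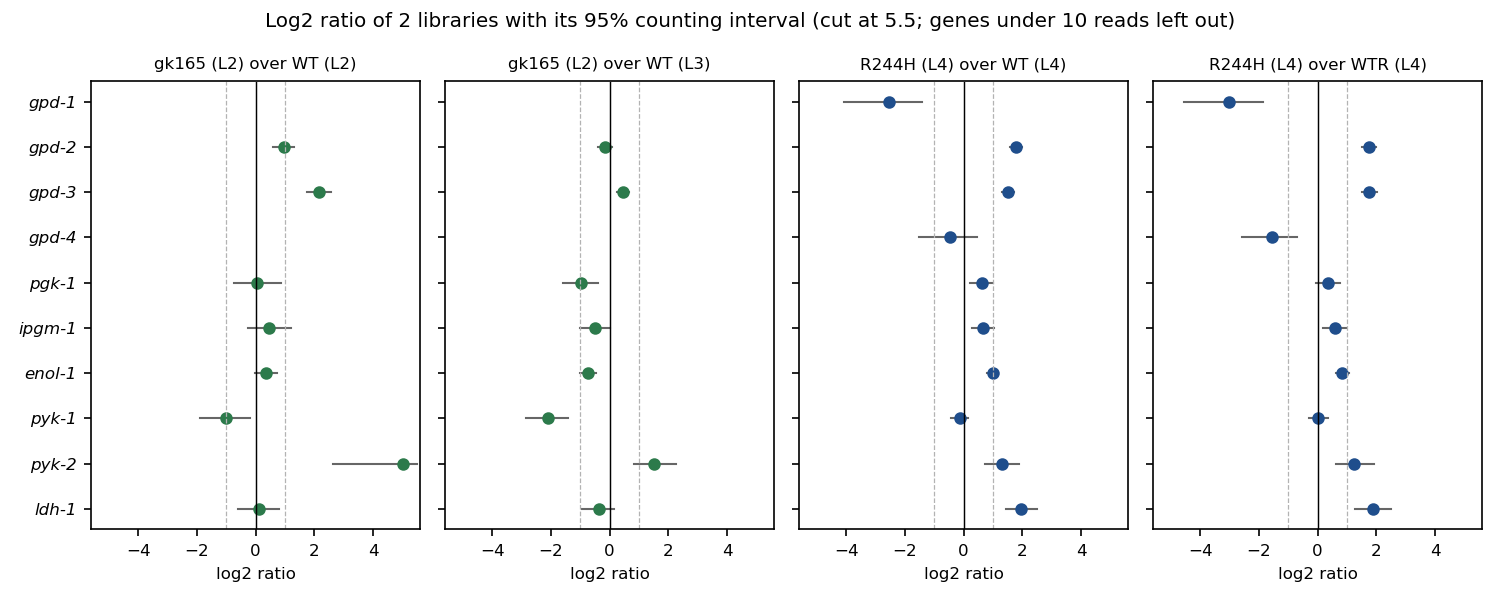
Log2 ratio of 2 libraries (x axis) for each gene (rows) in the 4 comparisons of a mutant with a control, as points with 95% counting intervals and dashed lines at 2-fold. In both R244H panels *gpd-2*, *gpd-3*, *pyk-2* and *ldh-1* lie right of the 2-fold line, and in both *gk165* panels *pyk-1* lies on the left and *pyk-2* on the right.

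The GAPDH genes fell into 2 pairs. *gpd-2* (WBGene00001684) and *gpd-3* (WBGene00001685) lie next to each other on the minus strand of X (WBcel235), from 3113434 to 3114771 and from 3112083 to 3113382 as listed. *gpd-1* (WBGene00001683, 10394114 to 10395349) and *gpd-4* (WBGene00001686, 10171255 to 10172497) lie on the plus strand of II. Within each pair the middle exon has the same length, 129 bp in *gpd-2* and *gpd-3* and 433 bp in *gpd-1* and *gpd-4*. If the copies of a pair are alike in sequence, which was not computed here, the counting may not have told their reads apart. The reads of *gpd-1*, *gpd-3* and *gpd-4* summed to whole numbers in every library. The values of single members are therefore given with the sum of each pair.

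*gpd-2* had 1054 RPKM in R244H, against 313 in WTR and 308 in WT (L4), and 619 in *gk165*, against 317 in WT (L2) and 693 in WT (L3). *gpd-3* had 991 RPKM in R244H, against 293 in WTR and 350 in WT (L4), and 1004 in *gk165*, against 225 in WT (L2) and 732 in WT (L3). Both were among the most abundant transcripts of every library, above 96.5% of the genes of the table. For *gpd-2*, R244H stood above every other library, and WT (L2), WTR and WT (L4) did not differ beyond their counting error. For *gpd-3*, *gk165* and R244H were not apart and both stood above WT (L3), which stood above WT (L4), WTR and WT (L2). Summed, the pair in R244H had a log2 ratio of 1.75 over WTR (1.58 to 1.93) and of 1.64 over WT (L4) (1.49 to 1.78). In *gk165* the sum was 1.57 above WT (L2) (1.32 to 1.84) on the log2 scale but only 0.18 above WT (L3) (0.03 to 0.33). The first exon of *gpd-2* overlaps an exon of *mai-1* on the same strand. Leaving that exon out kept every ratio of *gpd-2* within its interval.

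*gpd-1* and *gpd-4* were scarce in every library but those of WTR and WT (L4). *gpd-1* had 6 reads in R244H, against 67 in WTR and 74 in WT (L4), and between 0 and 5 in the L2 and L3 libraries. *gpd-4* had 13 reads in R244H, against 52 in WTR and 37 in WT (L4), and 1 to 4 in the L2 and L3 libraries. The log2 ratio of *gpd-1* in R244H was -3.02 over WTR (-4.56 to -1.87) and -2.55 over WT (L4) (-4.09 to -1.40). For *gpd-4* it was -1.57 over WTR (-2.59 to -0.69), whereas the interval to WT (L4), -1.51 to 0.47, includes no change. Summed, the pair in R244H was at -2.22 over WTR (-3.01 to -1.53) and at -1.51 over WT (L4) (-2.30 to -0.81). The 4 GAPDH genes together were still higher in R244H, at 1.40 over WTR (1.24 to 1.55) and 1.44 over WT (L4) (1.30 to 1.57), and *gpd-1* and *gpd-4* made up 19 of the 999 GAPDH reads of R244H, against 119 of 506 in WTR and 111 of 754 in WT (L4).

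Germline transcripts, like *gpd-1* and *gpd-4*, were far more abundant in WTR and WT (L4) than in the other 4 libraries. The summed level of 10 germline markers was 107 RPKM in R244H, against 1009 in WTR and 987 in WT (L4). All 10 were at least 2-fold lower in R244H than in either control, beside 33% of all genes over WTR and 32.9% over WT (L4). The sum was 66.8 RPKM in *gk165*, against 36.8 in WT (L2) and 115 in WT (L3). Of 8 sperm markers, summed at 43.6 RPKM in R244H, against 2857 in WTR and 2320 in WT (L4), *msp-19*, *msp-55* and *msp-113* had 0 reads in R244H, and all 8 had 0 reads in WT (L2) and WT (L3). In whole worms, fewer cells of a type and less RNA per cell cannot be told apart, and the part of the germline in the levels of *gpd-1* and *gpd-4* was not tested.

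In R244H the 3 middle steps of the pathway rose less than *gpd-2*, *gpd-3*, *pyk-2* and *ldh-1*, and with exons pooled their profiles were alike. *pgk-1* (phosphoglycerate kinase, WBGene00020185, I, 3867541 to 3869109), *ipgm-1* (cofactor-independent phosphoglycerate mutase, WBGene00019001, I, 6569494 to 6572598) and *enol-1* (enolase, WBGene00011884, II, 8932096 to 8933833) are each the single gene of their step among the genes described here. Their profiles over the 6 libraries were the closest among the members, with distances of 0.37 between *ipgm-1* and *enol-1*, 0.42 between *pgk-1* and *ipgm-1* and 0.54 between *pgk-1* and *enol-1*, as Euclidean distance of centred log2 RPKM over 6 libraries.

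*enol-1* had 660 RPKM in R244H, against 368 in WTR and 334 in WT (L4), and 332 in *gk165*, against WT (L2) with 260 and WT (L3) with 554. Its log2 ratio in R244H was 0.84 over WTR (0.62 to 1.07) and 0.98 over WT (L4) (0.78 to 1.19). R244H stood above all other libraries and WT (L3) above the remaining 4. *ipgm-1* had 150 RPKM in R244H, against 101 in WTR and 95.2 in WT (L4), with log2 ratios of 0.58 (0.18 to 0.98) and 0.66 (0.29 to 1.02). *pgk-1* had 182 RPKM in R244H, against 142 in WTR and 119 in WT (L4). Its ratio was 0.61 over WT (L4) (0.23 to 0.99) and 0.36 over WTR, with no change inside the interval of -0.05 to 0.77. For *pgk-1* and *ipgm-1* no library stood apart from its neighbour in the order of levels, so their order from R244H down to WT (L2) is not resolved step by step at this depth.

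In *gk165* these 3 genes lay between the controls or near the lower one. *pgk-1* had 81.7 RPKM in *gk165*, against 79.0 in WT (L2) and 161 in WT (L3). *ipgm-1* had 83.6 RPKM, against 61.0 in WT (L2) and 117 in WT (L3). None of the 3 differed from WT (L2) beyond counting error. Against WT (L3), *pgk-1* was lower by a log2 ratio of -0.97 (-1.58 to -0.41) and *enol-1* by -0.74 (-1.02 to -0.46), while the interval of *ipgm-1*, -1.01 to 0.02, includes no change. Relative to the median of all genes in that comparison, *enol-1* was at -0.32.

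The 2 pyruvate kinase genes, which encode the enzyme of the last step to pyruvate, went apart in *gk165*. *pyk-1* (WBGene00009126, I, 9168432 to 9177488) had 20 reads and 28.1 RPKM in *gk165*, against 34 reads and 56.9 RPKM in WT (L2) and 172 reads and 120 RPKM in WT (L3). *pyk-2* (WBGene00014001, IV, 10909915 to 10913078) had 43 reads and 90.2 RPKM in *gk165*, against 1 read and 2.49 RPKM in WT (L2) and 30 reads and 31.2 RPKM in WT (L3). Of the 6 libraries, *pyk-1* was lowest in *gk165*, and *pyk-2* was high in *gk165* and in R244H, which did not differ from each other beyond counting error. The log2 ratio of *pyk-1* was -1.01 over WT (L2) (-1.89 to -0.18) and -2.09 over WT (L3) (-2.84 to -1.42). That of *pyk-2* was 5.01 over WT (L2), with an interval of 2.62 to 10.51 that reflects the single read, and 1.52 over WT (L3) (0.82 to 2.25).

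In R244H, *pyk-2* differed from both controls beyond counting error and *pyk-1* from neither. *pyk-2* had 87.4 RPKM in R244H, against 36.7 in WTR and 35.5 in WT (L4), with log2 ratios of 1.25 (0.61 to 1.91) and 1.29 (0.73 to 1.88). *pyk-1* had 131 RPKM in R244H, against 128 in WTR and 144 in WT (L4), with log2 ratios of 0.03 (-0.31 to 0.37) and -0.14 (-0.45 to 0.16). The 2-fold excess of *pyk-2* over WTR depended on how exons were joined, with 0.90 as the mean over exons and 0.09 on its highest exon alone, which gave 0.66 over WT (L4). Both intervals of *pyk-1* include no change and leave out a 2-fold difference. Relative to the median of all genes compared, *pyk-1* was at 0.38 and 0.24, so the sign of its ratio to WT (L4) depends on the scaling.

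Per length, *pyk-2* made up 76.2% of the pyruvate kinase level in *gk165* (exact binomial interval of the reads, 64.9% to 85.2%), against 4.20% in WT (L2) (0.11% to 20.7%) and 20.6% in WT (L3) (14.6% to 27.8%). In R244H it made up 40.0% (32.5% to 47.7%), against 22.2% in WTR (16.0% to 29.4%) and 19.7% in WT (L4) (15.1% to 25.03%). The intervals of each mutant, which cover counting error only, did not overlap those of its controls. The last exon held 24 of the 43 *pyk-2* reads in *gk165*, against 4.5 of the 20 *pyk-1* reads. The share was not computed without the last exons. An antisense RNA, *ZK593.11*, is annotated opposite the second exon of *pyk-2*, which held 3 of the 43 reads in *gk165* and 15 of the 59 in R244H. The library kit keeps the strand, but whether the counting used it is not stated. The summed level of 8 body wall muscle markers was 1850 RPKM in *gk165*, against 3806 in WT (L2) and 6488 in WT (L3). Of the 8, 4 and 7 were at least 2-fold lower and none was higher. Over all genes compared, 24.4% and 35.5% were lower. Marker genes were not split by part of the gene, although the position of reads along genes differed in *gk165*, as given below. The part of muscle in the low *pyk-1* level of *gk165* was not tested.

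*ldh-1* (lactate dehydrogenase, WBGene00002262, plus strand of II, 11725325 to 11726533) was measured on 3 of its 4 merged exons. It had 202 RPKM in R244H, against 54.6 in WTR and 52.1 in WT (L4), and 139 in *gk165*, against WT (L2) with 129 and WT (L3) with 178. The 6 libraries formed a high and a low group. R244H, WT (L3), *gk165* and WT (L2) followed each other without a step beyond counting error, and the step from WT (L2) down to WTR was beyond it. Within the high group, R244H was above *gk165* by 0.54 (0.02 to 1.13), and the ratio of R244H to WT (L2) was not computed. The log2 ratio in R244H was 1.88 over WTR (1.28 to 2.51) and 1.95 over WT (L4) (1.44 to 2.51), the highest value of the 10 genes in both comparisons, although over WTR *gpd-3* exceeded it without the last exon and *gpd-2* on the highest exon alone. All 3 listed exons were higher in R244H than in both controls, with 15, 57 and 15.5 reads in R244H, against 4, 24 and 3.5 in WTR and 5.5, 32 and 8.5 in WT (L4). In *gk165* the ratio was 0.11 over WT (L2) (-0.59 to 0.80) and -0.35 over WT (L3) (-0.93 to 0.15), so a difference of *ldh-1* in *gk165* was not detectable at this depth. Pooled over exons, these intervals leave out a 2-fold rise and a 2-fold fall. Without the last exon, the interval over WT (L2), -0.51 to 1.01, does not leave out a 2-fold rise.

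**Figure D3:**
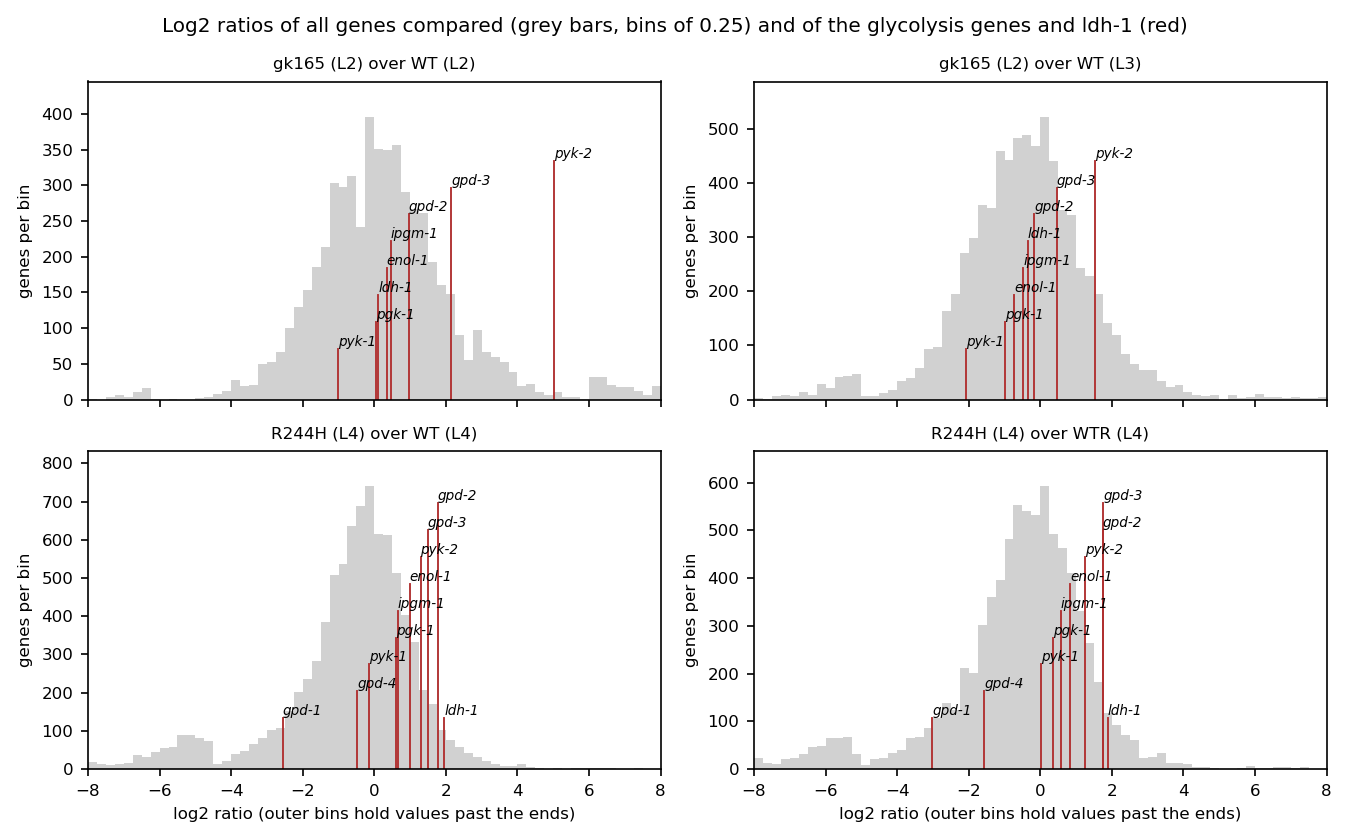
Histograms of the log2 ratios of all genes compared (grey; x axis, log2 ratio; y axis, genes per bin of 0.25) for each mutant against each control, with red lines for the glycolysis genes and *ldh-1*. In R244H, *ldh-1*, *gpd-2*, *gpd-3* and *pyk-2* lie in the right flank and *gpd-1* in the left, while in *gk165* over WT (L3) the genes are spread around the middle of the histogram.

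The position of the reads along the genes differed in *gk165*. Among 923 genes with at least 20 reads in every library, the last listed exon, at the 3′ end, exceeded the first per length by a median log2 of 2.67 in *gk165*, against 1.30 in WT (L2) and 1.03 in WT (L3), and by 0.43 in R244H, against 0.79 in WTR and 0.59 in WT (L4). *gk165* thus stood apart from its controls in 3′ weight, and R244H lay below its own. Each member was therefore also compared on its last exon and on the other exons, a split chosen after seeing the data.

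In *gk165* the middle of the table shifted with the part of the gene that was read. The median of all genes was 0.72 over WT (L2) and 0.23 over WT (L3) on the last exon, and -0.41 over WT (L2) and -1.104 over WT (L3) on the other exons, so each ratio is also given relative to the median for its part. *gpd-3* was above that median in both parts over both controls. *gpd-3* had 286.5 reads in its last exon in *gk165*, against 37 in WT (L2), a log2 ratio of 2.70 (2.20 to 3.24). In its other exons it had 47.5 reads in *gk165*, against 26 in WT (L2), a ratio of 0.62 with an interval of -0.08 to 1.38. Relative to the median these ratios were 1.98 and 1.02. Over WT (L3), *gpd-3* was at 0.72 in the last exon and -0.55 (-1.04 to -0.05) in the others, which is 0.49 and 0.55 above the median of each part. For *gpd-2* the ratio to WT (L2) was 1.15 (0.73 to 1.58) in the last exon and 0.34 (-0.46 to 1.08) in the others, or 0.43 and 0.75 relative to the median. *pyk-2* had 24 reads in its last exon in *gk165*, against 0 in WT (L2) and 1 in WT (L3). In its other exons it had 19 reads in *gk165*, against 1 in WT (L2) and 29 in WT (L3), a log2 ratio of 3.84 (1.34 to 9.37) and of 0.40 (-0.52 to 1.28). Relative to the median of the other exons these were 4.25 and 1.501, so *pyk-2* stood above the middle of the table in both parts over both controls.

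Over WT (L2), *enol-1* lay near the middle of the table in both parts and *pyk-1* below it. *enol-1* in *gk165* over WT (L2) was at 0.86 (0.32 to 1.43) in its last exon and at -0.28 (-0.87 to 0.31) in the others, which is 0.14 and 0.13 above the median of each part. *pyk-1* in *gk165* was below WT (L3) in both parts, at -2.65 (-4.77 to -1.41) in the last exon and -1.85 (-2.68 to -1.06) in the others. Against WT (L2), its ratio was -1.57 (-3.92 to -0.11) in the last exon and -0.78 (-1.74 to 0.29) in the others. Relative to the median it was at -2.88 and -0.75 over WT (L3) and at -2.29 and -0.37 over WT (L2). For *ldh-1* the other exons gave 0.24 (-0.51 to 1.01) to WT (L2) and -0.02 (-0.63 to 0.55) to WT (L3), which is 0.65 and 1.09 above the median, while its last exon, with 4.5 reads in *gk165*, was at -1.37 and -2.01 relative to the median. *pgk-1* had 1.5 reads in its other exons in *gk165*, against 4 in WT (L2) and 29.5 in WT (L3), a ratio of -1.57 (-4.72 to 1.55) and -3.16 (-6.01 to -0.92), or -1.17 and -2.06 relative to the median. Over WT (L3), the other exons of *ipgm-1* were at 0.47 and those of *enol-1* at -0.42 relative to the median.

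In R244H the 2 parts of *ldh-1*, *gpd-2* and *gpd-3* were all above both controls. *ldh-1* was at 2.47 (0.78 to 4.45) in the last exon and 1.77 (1.13 to 2.46) in the others over WTR, and at 1.85 (0.72 to 3.46) and 1.96 (1.37 to 2.56) over WT (L4). *gpd-2* and *gpd-3* were between 1.36 and 1.94 in both parts over both controls. For *pyk-2* the last exon had only 4.5 reads in R244H, and the other exons gave 1.29 (0.59 to 1.96) over WTR and 1.28 (0.67 to 1.86) over WT (L4). Over WTR, *pgk-1* was at 0.69 (0.16 to 1.21) in the last exon and at -0.18 (-0.86 to 0.51) in the others. The other exons of *enol-1* gave 0.96 (0.69 to 1.23) over WTR, so these 2 genes were not alike in that part.

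**Figure D4:**
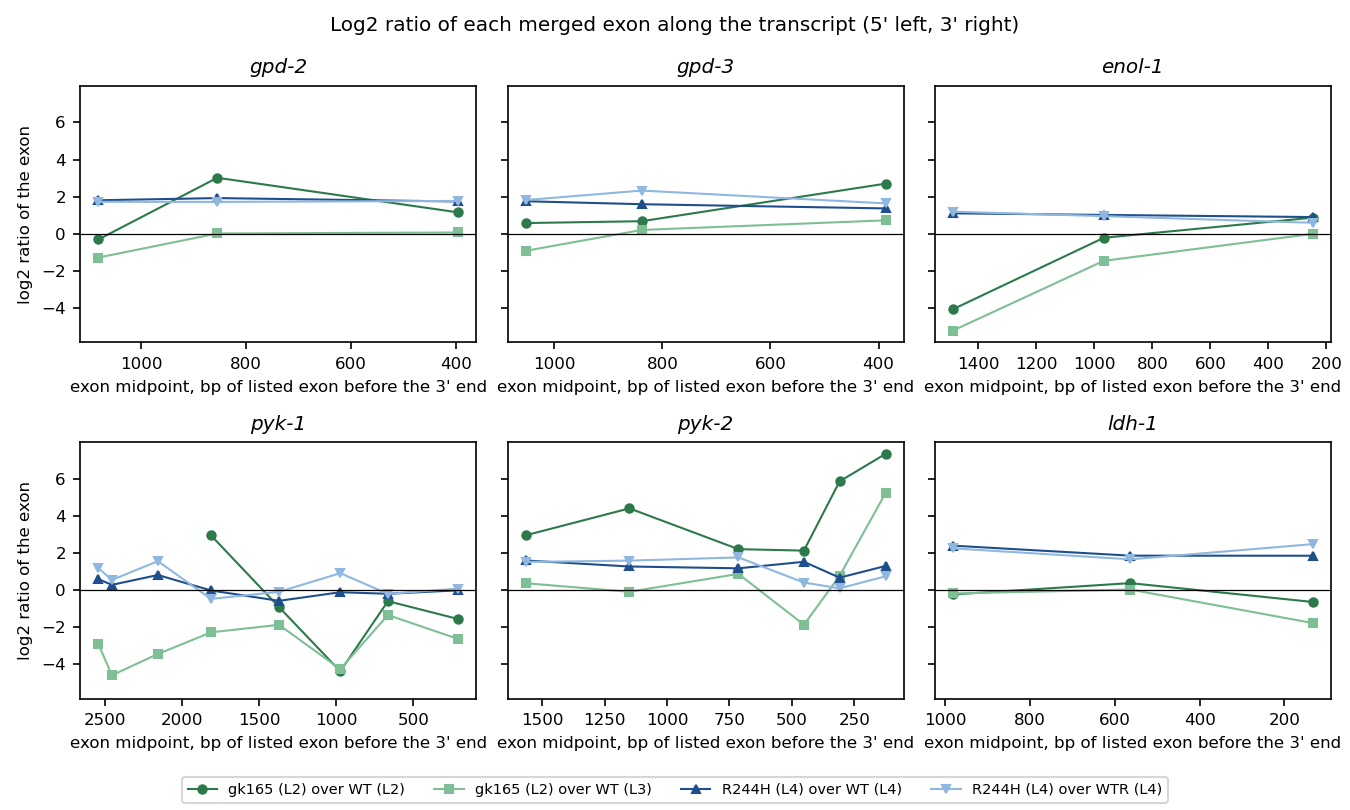
Log2 ratio of each listed exon (y axis) at its distance from the 3′ end in bp of listed exon (x axis, 5′ on the left) for 6 of the genes, with 1 line per comparison. Exons without reads in both libraries are left out, and exons with 0 reads in 1 library take their value from the offset. The green *gk165* lines reach their highest value at the 3′-most exon in *gpd-3*, *enol-1* and *pyk-2*, and the blue R244H lines of *gpd-2*, *gpd-3* and *ldh-1* stay above 1 along the gene.

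The levels of several members also changed between wild-type stages. Between L2 and L3, 6 of the 8 genes with enough reads were at least 2-fold higher at L3 and none was lower, beside 24.3% and 3.19% of 7076 genes. The median log2 ratio of all genes in that comparison was 0.44, and the rise of *pyk-2* starts from 1 read in WT (L2). Between L3 and L4, *gpd-1* and *gpd-4* were at least 2-fold higher at L4 and *gpd-2*, *gpd-3* and *ldh-1* at least 2-fold lower, beside 23.9% and 15.5% of 9227 genes. *ldh-1* had the largest fall, with 129 RPKM in WT (L2), 178 in WT (L3) and 52.1 in WT (L4), a log2 ratio of WT (L4) over WT (L3) of -1.76 (-2.31 to -1.27). For *gpd-2* and *gpd-3* that ratio was -1.17 (-1.38 to -0.96) and -1.06 (-1.27 to -0.86). Of the 4 genes at least 2-fold higher in R244H than in its L4 controls, *gpd-2*, *gpd-3* and *ldh-1* were thus also at least 2-fold lower in WT at L4 than at L3, and *pyk-2* was not, at 0.18 (-0.50 to 0.89).

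R244H (L4) was therefore also set beside WT (L3), a comparison chosen after seeing the data, in which genotype and stage differ together. Of the 10 genes, 2 were at least 2-fold higher in R244H and none was lower, beside 11.6% and 22% of 7679 genes, where the median of all genes was -0.28. The 2 genes were *gpd-4*, from 13 reads in R244H, against 1 in WT (L3), and *pyk-2*, with a log2 ratio of 1.47 (0.83 to 2.17). *ldh-1* had a ratio of 0.18 (-0.23 to 0.60), *pgk-1* of 0.18 (-0.21 to 0.57), *ipgm-1* of 0.36 (-0.02 to 0.74) and *pyk-1* of 0.13 (-0.21 to 0.46). On the scaling used, the intervals of these 4 genes include no change and leave out a 2-fold difference. All 4 intervals also lie above the median of all genes, -0.28, so whether they include no change depends on the scaling. *gpd-2*, *gpd-3* and *enol-1* were above WT (L3) by 0.61 (0.42 to 0.79), 0.44 (0.25 to 0.62) and 0.25 (0.06 to 0.45). The study describes the development of R244H worms as delayed, and genotype and developmental timing cannot be told apart in these libraries.

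The L4 controls of R244H differed little from each other in these genes. In WTR over WT (L4), 1 of the 10 genes, *gpd-4*, was at least 2-fold higher, with an interval of its log2 ratio of 0.47 to 1.76, and none was lower, beside 5.5% and 6.92% of 8939 genes. The other 9 intervals include no change, and the ratio of *ldh-1* was 0.07 (-0.61 to 0.77).

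The neighbouring steps of sugar metabolism were read from 4 further lists. In upper glycolysis, 3 of 9 genes were at least 2-fold higher in R244H than in WT (L4) and 2 than in WTR, with 1 lower in each, beside the shares of all genes of 12.7% and 16.1% higher and 32.9% and 33% lower. The only gene higher against both controls was *aldo-2*, a fructose-bisphosphate aldolase, at 1.42 (1.23 to 1.62) over WTR and 1.48 (1.31 to 1.65) over WT (L4). The lower one was *pfk-1.2*, 1 of the 2 phosphofructokinase genes, with 0 reads in R244H, against 11 in WTR and 16 in WT (L4), at least 2.75-fold and 2.61-fold lower when R244H is set at 3 reads. In *gk165*, *aldo-2* was higher than in WT (L2) by 2.17 (1.89 to 2.47) and than in WT (L3) by 1.28 (1.11 to 1.45). The hexokinase genes *hxk-1* and *hxk-2* went apart in *gk165*, with 1.78 and 1.68 for *hxk-1* and -2.04 and -1.86 for *hxk-2* over WT (L2) and WT (L3). In *gk165*, 2 of the 8 genes of this list that could be compared were higher than in WT (L2) and 1 lower, and 2 higher than in WT (L3) and 2 lower. Over all genes compared, 30.2% were higher and 24.4% lower than in WT (L2), and 17.9% and 35.5% than in WT (L3), and the same shares apply to the lists that follow.

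Gluconeogenesis, which runs several of these steps backwards from oxaloacetate, had 4 of 5 genes at least 2-fold higher in R244H than in either control and 1 lower. *pyc-1* (pyruvate carboxylase) was at 1.69 over WTR and 1.58 over WT (L4), *fbp-1* (fructose-bisphosphatase) at 1.47 and 1.44, *pck-2* at 1.99 and 1.84 and *pck-1* at 1.30 and 1.17, all with intervals above no change. The lower gene, *pck-3*, had 0 reads in R244H, against 33 in WTR and 30.5 in WT (L4), at least 8.25-fold and 4.98-fold lower at 3 reads in R244H. The *pck* genes encode phosphoenolpyruvate carboxykinase. *pck-3* and *pfk-1.2* had 0 reads in WT (L2), WT (L3) and *gk165*, the libraries in which *gpd-1* and *gpd-4* and the sperm markers were scarce as well. In *gk165*, 3 of the 4 genes of the list that could be compared exceeded WT (L2) at least 2-fold and none exceeded WT (L3) by as much.

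Of a list of 5 genes around cytosolic NADH, which holds dehydrogenases and the aspartate aminotransferase gene *got-1.2*, 4 were at least 2-fold higher in R244H than in WT (L4) and 3 than in WTR, and none was lower. Higher against both were *gpdh-1*, a glycerol-3-phosphate dehydrogenase, at 2.20 over WTR and 1.91 over WT (L4), its relative *gpdh-2*, with intervals of 0.78 to 1.47 and 0.84 to 1.45, and *mdh-1*, a malate dehydrogenase, at 1.48 and 1.40. In *gk165*, 4 of the 5 exceeded WT (L2) at least 2-fold. Over WT (L3), 1 was higher, *gpdh-1* with 1.33 (0.30 to 2.43), and 1 lower. A list around the entry of pyruvate into mitochondria holds 8 genes of the pyruvate carrier, of pyruvate dehydrogenase and of its regulators. Of these, 1 was higher and 1 lower in R244H over each control. The higher one was *mpc-2*, a subunit of the mitochondrial pyruvate carrier, at 1.54 over WTR and 1.89 over WT (L4). In *gk165*, 2 of 7 genes were higher and 1 lower than in WT (L2), and 1 of 8 higher and 2 lower than in WT (L3), with *mpc-1*, the other carrier subunit, higher over both (intervals of 1.46 to 3.56 and 0.66 to 1.75) and *dlat-1*, of the pyruvate dehydrogenase complex, lower over both (-1.15 and -1.73).

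Among 4455 genes with at least 100 reads over the 6 libraries, the profiles nearest to that of *ldh-1* were those of *nhr-97*, *scd-1* and *ida-1*, at distances of 0.53, 0.53 and 0.54. For *gpd-3*, the member with the most reads, they were *F54D5.3* at 0.34, *nlt-1* at 0.44 and *dhs-28* at 0.49. *ldh-1* itself was at 1.05 from *gpd-2* and 1.65 from *gpd-3*. *ida-1* is in the list of 7 neuronal markers, whose summed level was 345 RPKM in R244H, against 135 in WTR and 148 in WT (L4). Of those that could be compared, 3 of 4 and 3 of 5 were at least 2-fold higher, beside 16.1% and 12.7% of all genes. In *gk165* the neuronal sum was 447 RPKM, against WT (L2) with 534 and WT (L3) with 586. The summed level of 8 intestinal markers was 9845 RPKM in R244H, against 5153 in WTR and 5755 in WT (L4), and 5180 in *gk165*, against 2425 in WT (L2) and 5079 in WT (L3). Most of it was the protease gene *asp-1*, with 8037 RPKM in R244H and 4895 in *gk165*, against 1706 in WT (L2) and 3580 in WT (L3). By gene, 2 of 7 markers were at least 2-fold higher in R244H than in WTR and 1 of 8 than in WT (L4), beside 16.1% and 12.7% of all genes. Of the 6 that could be compared in *gk165*, 2 were higher and 3 lower than in WT (L2), with a median log2 ratio of -0.52. None was higher and 3 were lower than in WT (L3), with a median of -1.33. The shares of all genes were 30.2% and 24.4% over WT (L2), and 17.9% and 35.5% over WT (L3). *elt-2*, a defining transcription factor gene of the intestine, had 0 reads in *gk165*, against 4 in WT (L2) and 8 in WT (L3). *elt-7*, of the same list, had 2.5 reads in *gk165*, against 0 in WT (L2) and 2 in WT (L3). Both had too few reads for a ratio in *gk165*. The part of these tissues in the levels of *ldh-1*, *gpd-2* and *gpd-3* was not tested, nor was that of the scarce germline and sperm RNA of R244H. The markers of pharynx muscle and hypodermis summed to 50.4 and 2091 RPKM in *gk165*, against 245 and 8093 in WT (L2) and 499 and 7338 in WT (L3), and to 195 and 2746 RPKM in R244H, against 112 and 1931 in WTR and 232 and 2862 in WT (L4).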

How the data were processed

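PolyA RNA of whole worms was measured in 6 libraries, 1 per condition, and the groups were taken from the sample labels. The authors trimmed the reads with Trim Galore 0.4.1 and cutadapt 1.14, aligned them to WBcel235 with TopHat2 2.1.0 and Bowtie2, counted them per merged exon with featureCounts and normalized them with edgeR 3.26.8. They deposited log2 RPKM values, which carry an offset of 0.54 CPM, or 0.25 reads in a library of mean size. The strand setting, the filter on exons and the offset are not given in the sources used here. Reads behind each value were recovered from the steps in the values, and 54.0% of the non-zero values were whole reads within 0.01 reads, the rest fractions.

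Reads were pooled over the merged exons of a gene and scaled with the effective library sizes, and the log2 ratio of 2 libraries was taken with the deposited offset in both. Intervals are exact binomial (Clopper-Pearson) at 95% on reads rounded to whole numbers. They cover counting error only, and PCR copies are not independent molecules. A count or ratio needs 10 reads in the 2 libraries together, and a library at 0 was set at 3 reads for a bound. With 1 library per condition no test was made and replicate-based models were left out.

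All 10 genes are named. Pathway genes are named when at least 2-fold apart from both controls of a mutant with intervals that exclude no change, and profile neighbours are the 3 nearest genes of *ldh-1* and of the member with the most reads. The genes, lists and rules were chosen with earlier results of these data known. Alternatives were the mean linear RPKM over exons plus 1, the highest exon only, no overlapping exons, centring on the median, read totals as library sizes, an offset of 1 read, minimums of 50 and 0 reads and a 1.5-fold threshold. Added after seeing the data were the last exon only, the other exons only, the paralog sums and R244H over WT (L3). The scripts were tested on simulated data. Gene overlaps came from an Ensembl annotation of the same assembly. The work was done in Python 3.11.15 with pandas 2.3.3 and numpy 2.4.6, scipy 1.17.1 for the intervals, and matplotlib 3.10.9.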

Additional observations from a re-analysis of the deposited data

How the results depend on the processing

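Of 288 ratios of single genes recomputed under 8 settings, 44 left the 95% interval of the reported ratio. Among these, 1 changed sign from a value whose interval excluded no change, that of *gpd-3* in *gk165* over WT (L3), at -0.55 without the 3′-most exon, a setting chosen after seeing the data in which the median of all genes was -1.104, so that *gpd-3* remained above the middle of the table. The counts of genes at least 2-fold apart in *gk165* were small and moved easily. Over WT (L2), the highest exon alone gave 4 higher and 0 lower genes, an added read 0 lower, a minimum of 50 reads 1 higher, and leaving out the 3′-most exon 1 higher. Over WT (L3), the mean over exons gave 2 lower genes, the highest exon alone 0 higher, no minimum 2 higher, a 1.5-fold threshold 3 lower, the exons without the 3′-most one 0 higher and 3 lower, and the 3′-most exon alone 2 lower. For R244H over WT (L4), centring gave a median of 1.198 and a 1.5-fold threshold 7 higher genes, and over WTR the 3′-most exon alone gave 1 lower gene. Over these settings and with the 1.5-fold threshold left aside, the count of higher genes in R244H lay between 3 and 6 over WT (L4) and between 3 and 5 over WTR, against 4 in each as reported, and centring raised the median over WTR to 1.06. With 188742 reads in WT (L2) and 279254 in *gk165*, differences of genes under 10 reads could not be read. No paired analysis was possible because each condition has 1 library.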
